A study of Mus musculus with 8 samples.

Results

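Splicing factors and other nuclear RNA-binding proteins were compared between the cerebella of 2 inbred mouse strains. The members were the probe sets whose only gene symbol in the platform annotation belongs to the SR proteins (Srsf), the hnRNP proteins (Hnrnp), the U2 particle and branch point factors (Sf3a, Sf3b, U2af), the snRNP proteins (Snrp), the Prp proteins (Prpf), the RBM proteins (Rbm), the Rbfox, Khdrbs, Celf and Nova families, or Sfpq and Nono. The rule found 229 of 22626 probe sets on the Affymetrix 430A array and 94 of 22511 on the 430B array, 323 of 45137 in all. They stand for 114 of 18193 genes, 90 on 430A, 60 on 430B and 36 on both. A further 21 probe sets on 430A and 7 on 430B carry several symbols, of which at least 1 matches, and are not members.

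The 4 mice were alcohol-naive males. Mice 48 and 51 were Inbred Long Sleep (ILS) and mice 55 and 56 were Inbred Short Sleep (ISS), strains that descend from lines bred to lose the righting reflex for a long or a short time after ethanol. All had free food and water for 14 days after transfer between facilities, and the labels give no age. Total RNA of each cerebellum was labelled from an oligo-dT primer and hybridised to both arrays, so each strain has 2 arrays per chip and the replicates are separate mice.

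Splicing removes introns from nascent transcripts. The U2 particle, with the SF3A and SF3B complexes and the U2AF dimer, recognises the branch point and the 3′ splice site, and the snRNPs, built on rings of Sm proteins, assemble with Prp proteins into the spliceosome. SR proteins mostly bind exonic enhancers and favour the use of an exon, while many hnRNP proteins act as repressors. Neurons add regulators such as the Rbfox, Nova and Celf proteins, and the transcripts of many splicing regulators are themselves alternatively spliced, so that different probe sets of such a gene can read different transcripts.

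Values are array signals scaled to a 2% trimmed mean of 500, and differences are ILS minus ISS on the log2 scale. Array medians ran from 204.8 to 239.1 on 430A and from 229.6 to 261.4 on 430B. On 430A both ILS arrays were run on 1 fluidics station and scanned before both ISS arrays, so station and scan order cannot be told apart from strain there. On 430B ILS mouse 48 ran on another station than the other 3 mice. Both ISS arrays of 430B were scanned before both ILS arrays, so scan order cannot be told apart from strain on that chip either. The 3′ to 5′ signal ratio of the Gapdh control ran from 0.743 to 0.855 on 430A with overlapping strains. The 18S rRNA control read 537.7 and 800.9 in ILS against 147.1 and 141.9 in ISS on 430A, and 2189 and 2585 against 545 and 712.1 on 430B. Granule and Purkinje cell markers were well detected, as in cerebellum, and the summed forebrain neuron markers reached 37 to 70 on 430A with 0 probe sets bright enough to test. On 430B the forebrain list has 1 probe set bright enough to test, of Emx1, and its sums were 468 and 295 in ILS and 390 and 233 in ISS.

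Several markers of other cells differed between the strains. Of 9 microglial probe sets tested on 430A, 3 were called higher in ILS (C1qb, C1qc and Ctss), and the summed microglial signal was 7903 and 7928 in ILS against 6049 and 5034 in ISS. Of the 7 Purkinje cell probe sets 1 was called lower in ILS (Ppp1r17), with sums of 22501 to 23732 in ILS against 25288 to 32882 in ISS. Of 12 oligodendrocyte probe sets 1 was called higher in ILS (Cldn11), with sums of 74255 to 77255 against 68777 to 73907, and 0 of 9 granule cell probe sets were called, although 4 had an unadjusted p under 0.05, which 21.8% of all tested probe sets of 430A had, and their sums overlapped. On 430B 1 of 3 Purkinje cell probe sets was called, of Car8, higher in ILS and so opposite to Ppp1r17. The Purkinje sums there overlapped, with 5800 and 3860 in ILS against 3639 and 5087 in ISS. Of 3 Bergmann glia and astrocyte probe sets of 430B 1 was called, of Gfap and lower in ILS. Their sums overlapped, with 19089 and 14716 against 18134 and 20639. The 9 Bergmann glia and astrocyte probe sets of 430A gave 0 calls and 4 with an unadjusted p under 0.05, with sums of 13316 to 14604 in ILS against 16985 to 17087 in ISS. The part of these differences, and of the 18S signal, in the results below was not tested, and in whole tissue fewer cells of a type and less RNA per cell cannot be told apart.

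Few splicing factors passed the test of a strain difference. Of the 181 member probe sets bright enough to test on 430A, from 86 genes, 6 passed the limma adjusted p of 0.05, which is 3.31% against a background of 2.93% of all tested probe sets. Among them 5 were higher in ILS (background 1.61%) and 1 was higher in ISS (background 1.33%). On 430B 2 of 66 tested member probe sets, from 49 genes, were called, 3.03% against a background of 0.48%, with 1 higher in ILS (background 0.195%) and 1 higher in ISS (background 0.284%). With 2 calls the 430B share rests on very few probe sets. An unadjusted p under 0.05 was found for 34 members on 430A (18.8%, background 21.8%) and for 6 on 430B (9.09%, background 9.02%), and the counts of that kind below are to be read against these backgrounds.

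Taken over all tested members, the median difference was 0.005 on 430A, beside -0.0108 for all tested probe sets, and -0.0478 on 430B, beside -0.0005. On 430A 93 member probe sets had the higher mean in ILS and 88 in ISS, and on 430B 27 and 39. The strains did not overlap at 99 member probe sets of 430A (54.7%, background 54.3%) and at 37 of 430B (56.1%, background 38.9%). The median absolute strain difference of the members was 0.204 on 430A, beside 0.189 for all tested probe sets, and 0.248 on 430B, beside 0.183. On 430A the split of calls depends on the scaling. With array medians set equal, the median of all tested probe sets moved from -0.0108 to -0.1686. Of the 181 members 16 were then called, 4 of them higher in ILS, beside 10.2% of all tested probe sets (1158 of 11313). That scaling lowers every 430A difference by the same amount, so that the positive medians of the hnRNP, U2, tissue-restricted and paraspeckle groups on 430A turn negative, while the differences between probe sets of a gene on the same chip do not move. Without ILS mouse 48 the member median on 430A was -0.0558, beside -0.0038 for all tested probe sets.

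**Figure D1:**
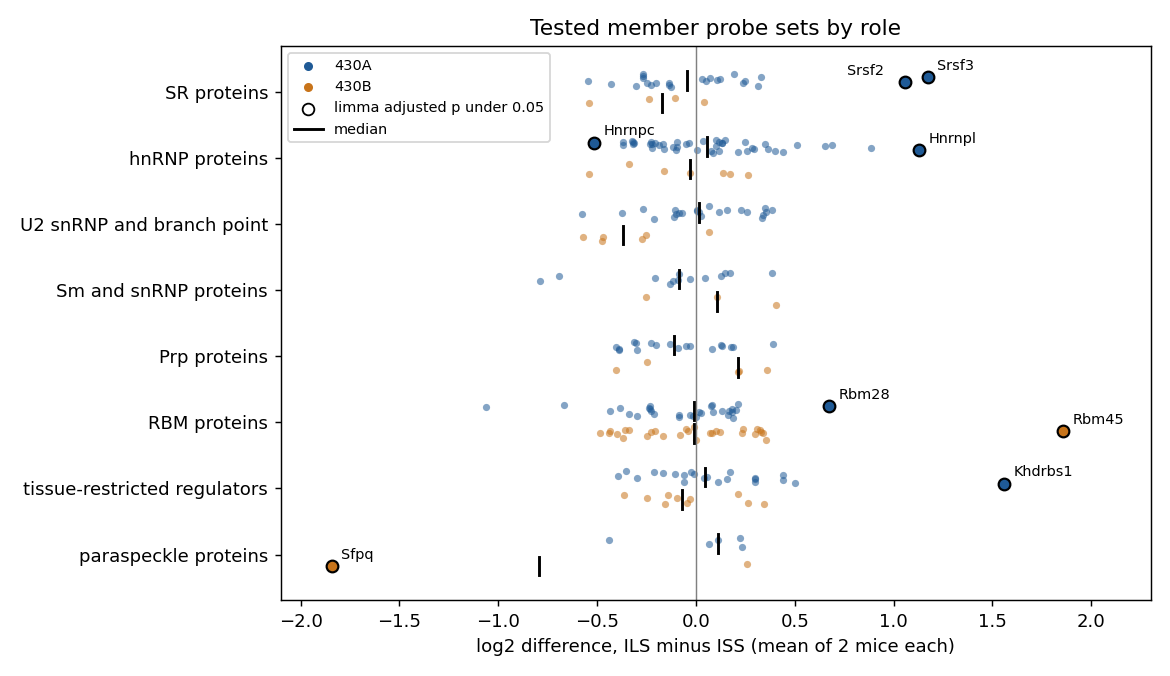
Log2 difference in signal, ILS minus ISS, of each tested member probe set (x axis), grouped by role (y axis), with 430A in blue, 430B in orange, a bar at the median and a black ring on the called probe sets. Most points lie within 0.5 of 0, and the 8 ringed probe sets belong to 8 different genes.

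Among the SR proteins, probe sets of Srsf3 and Srsf2 were higher in ILS. Srsf3, a small SR protein of splicing and mRNA export, read 1207 and 967 in ILS against 491 and 465 in ISS at probe set 1434512_x_at. The difference was 1.18 ± 0.153 (SE, n = 2 mice per strain, limma adjusted p = 0.0108), a 2.26-fold higher mean in ILS, and it passed the threshold under all 12 alternative settings. Srsf2, also known as SC35, a marker of nuclear speckles, read 3341.5 and 3114.5 in ILS against 1284 and 1867 in ISS at 1427504_s_at. Its difference was 1.06 ± 0.174 (SE, n = 2, limma adjusted p = 0.0244). The 2 ILS mice were well above both ISS mice, which themselves differed, and the call was lost without ILS mouse 48 (adjusted p = 0.0879) and with no filter on dim probe sets (0.054).

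The other SR probe sets did not pass. Over the 24 tested on 430A, from 9 genes, the median was -0.0471 with 12 on each side, 2 called and 5 at an unadjusted p under 0.05 (20.8%). Srsf6 read 827 and 779 in ILS against 1212 and 1129.9 in ISS at 1416721_s_at, without overlap, but the difference of -0.54 ± 0.13 did not pass (limma adjusted p = 0.0666). Its other tested probe sets on 430A went both ways. At 1416720_at Srsf6 read 958.8 and 911.3 against 771 and 733.6 (0.314, adjusted p = 0.209), without overlap, and 1448454_at had -0.2. On 430B another Srsf6 probe set read 3342.5 and 3273.9 against 4084.5 and 3733.6, a difference of -0.24 ± 0.134 (adjusted p = 0.665). Srsf5, the SR gene whose probe set had the highest signal on 430A, read 3378 and 4534 in ILS and 3782 and 4905 in ISS, so that its strains overlapped. Srsf11 on 430B read 514 and 391 against 765 and 558, a difference of -0.54 ± 0.251 (adjusted p = 0.578), and 0 of the 4 SR probe sets of 430B were called or had an unadjusted p under 0.05.

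The hnRNP proteins gave 1 call in each direction. Hnrnpl encodes a protein that binds CA-rich elements in pre-mRNA. It read 1146 and 1168.5 in ILS against 564 and 495 in ISS at 1424101_at, a difference of 1.13 ± 0.137 (SE, n = 2, limma adjusted p = 0.00782), or 2.19-fold. Each ILS value was about double each ISS value, and the call held under all 12 settings. The other Hnrnpl probe set, on 430B, was too dim to test and read 279.6 and 241 in ILS against 122 and 178.2 in ISS.

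Hnrnpc encodes a core hnRNP that binds uridine tracts in nascent RNA. Its probe set 1460240_a_at read 2383 and 2485 in ILS against 3379 and 3578 in ISS, a difference of -0.51 ± 0.107 (limma adjusted p = 0.046). The mice of each strain were close together and the strains well apart, yet only 3 of 12 settings kept the call, and leaving out any 1 mouse gave an adjusted p of 0.0559 to 0.231.

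The remaining hnRNP probe sets showed smaller or less even differences. Of 46 tested on 430A from 18 genes, 25 were on the ILS side and 21 on the ISS side, with a median of 0.0563. An unadjusted p under 0.05 was found for 10 of them, 21.7%, which is about the background of 21.8%. Hnrnph1 and Hnrnpf, paralogs that bind G-rich elements, each had 1 probe set where ILS mouse 48 stood apart. That of Hnrnpf, 1437099_x_at, read 1571 in mouse 48, 690.7 in mouse 51, and 641 and 683 in ISS. Hnrnph1 at 1437267_x_at read 446 and 226.8 in ILS against 171.2 and 173.2 in ISS. Without mouse 51 these gave differences of 1.25 and 1.37 that passed (limma adjusted p = 0.0138 and 0.0348), while with both mice they were 0.65 ± 0.32 and 0.89 ± 0.299 and did not (0.276 and 0.14). Both ISS values of the Hnrnph1 probe set lay below their array medians, so its fold is a bound, at least 1.52-fold brighter in ILS. The other tested Hnrnph1 probe set on 430A, 1415872_at, was brighter, with 2790.4 and 2740.6 in ILS against 2828.6 and 2899 in ISS (-0.0503). The other tested Hnrnpf probe sets on 430A had differences of 0.148, -0.311 and 0.103. Hnrnpab, a single-stranded nucleic acid binding hnRNP, read 2102 and 1836 against 1348 and 1412 at 1455855_x_at, a difference of 0.51 ± 0.127 (limma adjusted p = 0.071). Its other tested probe sets on 430A had differences of -0.223, -0.0937, -0.0938 and 0.119. Hnrnpk, which binds C-rich RNA and had the hnRNP probe set of highest signal on 430A, read 4855 and 3877 in ILS and 4319 and 3625 in ISS, with overlap. On 430B 0 of 7 hnRNP probe sets were called or had an unadjusted p under 0.05. There Hnrnpd (AUF1, a binder of AU-rich elements) read 3926.5 and 3059 against 4244 and 4536 at 1457568_at, a difference of -0.34 ± 0.156 (adjusted p = 0.57). Hnrnpd at 1458273_at read 353 and 304 against 455 and 497, -0.54 ± 0.248 (adjusted p = 0.573), and Hnrnpa0 read 8052 and 6997 against 7619 and 9259 with overlap.

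The core of the spliceosome gave 0 calls on either chip by limma, beside 2.93% of all tested probe sets on 430A and 0.48% on 430B. With as few probe sets as these groups hold, 0 calls says little. With equal medians Sf3a3, Snrpa1 and Snrpb2 were called on 430A, where 10.2% of all tested probe sets were called. Of the U2 and branch point factors, 23 probe sets from 12 genes were tested on 430A, with 14 on the ILS side, 9 on the ISS side, a median of 0.0169 and 3 at an unadjusted p under 0.05 (13%). Sf3b1, the branch point binding subunit of SF3B, read 2060 and 2067 in ILS against 2170.1 and 2289 in ISS, a difference of -0.11 ± 0.112. Sf3a3, a subunit of SF3A, read 278.8 and 295.3 against 383 and 477, -0.57 ± 0.172 (limma adjusted p = 0.11). The U2AF subunits U2af1 and U2af2, which bind the 3′ splice site and its pyrimidine tract, had differences of 0.0038 and 0.0684. On 430B 5 of 6 U2 probe sets lay on the ISS side, with a median of -0.37 and 1 at an unadjusted p under 0.05. Sf3b2 was the one of smallest p there, with 487 and 503 in ILS against 791 and 684 in ISS (-0.57 ± 0.205, adjusted p = 0.415). Sf3a1 read 423 and 330 against 532 and 502 on 430B (adjusted p = 0.638), and Sf3b5 read 3479 and 2804.5 against 3648 and 3903 (adjusted p = 0.665).

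Sm and snRNP proteins gave 13 tested probe sets from 8 genes on 430A, with a median of -0.0847 and 2 at an unadjusted p under 0.05 (15.4%). These 2 were of the U2-specific proteins Snrpb2 and Snrpa1, which bind each other on U2 snRNA. Snrpb2 read 285.7 and 246.6 in ILS against 443.9 and 415.3 in ISS (-0.69 ± 0.164, limma adjusted p = 0.0654), and Snrpa1 read 346 and 193.3 against 389 and 512 (-0.79 ± 0.276, adjusted p = 0.15). Neither overlapped between strains, and neither passed. The other tested probe sets of these genes on 430A had smaller differences, 0.0464 for Snrpb2 and -0.0892 and -0.114 for Snrpa1. Of the Sm core genes, Snrpe read 1893 and 1403 against 1821 and 1639.5 on 430A. Snrpb read 2542 and 3177 against 3072 and 3718 on 430B, and both genes overlapped between strains. On 430B the 3 tested probe sets of this group had a median of 0.105, with 0 at an unadjusted p under 0.05.

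Prp proteins had 18 tested probe sets from 10 genes on 430A, with 6 on the ILS side, 12 on the ISS side, a median of -0.11 and 2 at an unadjusted p under 0.05 (11.1%). Prpf8, the large protein at the catalytic centre, read 1829 and 2292 in ILS and 2124 and 2239.6 in ISS, with overlap. Prpf4b, a kinase of the spliceosome, read 543 and 505 against 444 and 359 at 1425498_at (0.39 ± 0.161, limma adjusted p = 0.206). Its other tested probe sets on 430A went both ways, with differences of -0.301, -0.388, 0.13 and 0.0838. Prpf3, of the U4/U6 particle, read 225.4 and 162.8 against 250.8 and 256.7 (-0.41 ± 0.216, adjusted p = 0.312). Both ILS values of Prpf3 lay below their array medians, which leaves a bound of at least 1.09-fold. On 430B 5 probe sets had a median of 0.213 with 1 at an unadjusted p under 0.05, that of Prpf19. This ubiquitin ligase of the Prp19 complex read 14790 and 12812 in ILS against 10971 and 10499 in ISS (0.36 ± 0.135, adjusted p = 0.434).

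RBM proteins are named for their RNA recognition motif and have varied functions. Rbm45, an RNA-binding protein found in inclusions with TDP-43 in human disease, gave the largest difference of any tested member. At 1437904_at on 430B it read 1625 and 1418 in ILS against 403 and 435 in ISS, a difference of 1.86 ± 0.187 (SE, n = 2, limma adjusted p = 0.00281), or 3.63-fold. Every ILS value was more than 3 times every ISS value. Only eBayes without the intensity trend lost the call (adjusted p = 0.0589), among 13 settings, and Rbm45 has no other tested probe set.

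Rbm28, a nucleolar protein that also associates with spliceosomal snRNPs, read 599 and 603 in ILS against 375 and 378 in ISS at 1452091_a_at on 430A. The difference of 0.67 ± 0.139 (limma adjusted p = 0.0452) was 1.6-fold. Mice of a strain were nearly equal, but the call stood only just inside the threshold and held in 2 of 11 settings, with adjusted p from 0.0434 to 0.131.

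The other RBM probe sets did not pass. On 430A 30 probe sets from 17 genes were tested, 15 on each side with a median of -0.007 and 5 at an unadjusted p under 0.05 (16.7%), and on 430B 29 from 20 genes, 13 and 16, with a median of -0.007 and 2 (6.9%). Rbm14, a paraspeckle and coactivator protein, read 155.2 and 156 in ILS against 245.1 and 431.4 in ISS at 1437032_x_at (-1.06 ± 0.27, limma adjusted p = 0.0742). Both ILS values lay below their array medians, so the fold is at least 1.4 higher in ISS. The ISS mice differed widely, and without ISS mouse 55 the difference was -1.47 and passed (0.00489). Rbm39, a U2AF-related splicing factor, read 219.4 and 149.1 against 291.3 and 282.7 at 1438397_a_at (-0.67 ± 0.226, adjusted p = 0.142). Both ILS values lay below their array medians, with a bound of at least 1.23-fold. Its other tested probe sets went both ways, with 0.135 at the brightest and -0.225 on 430A, and -0.0377 and 0.237 on 430B. Rbm12 read 276.5 and 210.3 against 307.2 and 346.7 on 430A (-0.44 ± 0.196, adjusted p = 0.24), while 1456964_at on 430B had 0.12. Rbm5, a regulator of the splicing of apoptosis genes, read 1387.5 and 1509.8 against 1723 and 1674 at 1452186_at (-0.23 ± 0.121, adjusted p = 0.308). Rbm5 at 1452187_at had 0.183. On 430B Rbm6, its neighbour in the family, read 880.2 and 810.5 against 944 and 1379 (-0.43 ± 0.212, adjusted p = 0.601). Rbm6 had -0.34 and 0.084 on 430A. Rbm20, known for splicing titin in heart, read 264.7 and 168.4 against 319 and 272.8 (-0.48 ± 0.347, adjusted p = 0.765).

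Of the tissue-restricted regulators, 22 probe sets from 10 genes were tested on 430A, 12 on the ILS side and 10 on the ISS side, with a median of 0.0486, 1 call and 6 at an unadjusted p under 0.05 (27.3%). The call was Khdrbs1 (Sam68), a regulator of activity-dependent neurexin splicing in cerebellar neurons. Genes were placed in this group by symbol alone, so its name does not show that Khdrbs1 is tissue-restricted. At 1438462_x_at it read 449.7 and 624 in ILS against 182.6 and 176.6 in ISS, a difference of 1.56 ± 0.197 (SE, n = 2, limma adjusted p = 0.0093). Both ISS values lay below their array medians, so the fold is a bound, at least 2.54-fold higher in ILS. It held under all 11 settings in which it was tested.

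No probe set of the Rbfox, Celf or Nova families passed. Rbfox3, the NeuN antigen of granule and most other neurons, read 19783 and 15608 in ILS and 18047 and 18171 in ISS on 430B, a difference of -0.043 ± 0.149. Rbfox1 on 430A read 2519 and 2535 against 2537.5 and 2921 (-0.11 ± 0.117). Rbfox2 read 588.2 and 588.2 against 460.2 and 408.9 (0.44 ± 0.143, limma adjusted p = 0.13). Celf4, enriched in neurons, read 1229 and 973 against 781 and 832.5 at 1426930_at (0.44 ± 0.153, adjusted p = 0.149), while its other tested probe sets had differences of -0.30 and 0.0429. Celf3 on 430B read 1195 and 1252 against 1543.5 and 1604 (-0.36 ± 0.154, adjusted p = 0.517). Nova1 on 430A and Nova2 on 430B, regulators of synaptic transcripts, had differences of 0.158 and -0.158. On 430B 0 of 10 probe sets of this group were called by limma and 1 had an unadjusted p under 0.05, with a median of -0.0701.

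Sfpq and Nono form the protein core of paraspeckles, nuclear bodies built on a long non-coding RNA. Sfpq at 1439058_at on 430B was the most strongly ISS-sided of the tested members, with 796 and 848 in ILS against 2848 and 3049 in ISS. The difference was -1.84 ± 0.152 (SE, n = 2, limma adjusted p = 0.00115), or 3.59-fold higher in ISS, and 12 of 13 settings kept it, all but eBayes without the trend (0.0589). The mice of each strain differed by far less than the strains did.

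Nono gave no call. At 1448103_s_at on 430A it read 1717 and 1939 in ILS against 2341 and 2622 in ISS (-0.44 ± 0.126, limma adjusted p = 0.0976), at 1415820_x_at the difference was 0.22, and on 430B it read 2913 and 2387.5 against 1843 and 2629.9, with overlap. Of the 5 paraspeckle probe sets tested on 430A, 4 lay on the ILS side, with a median of 0.113.

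**Figure D2:**
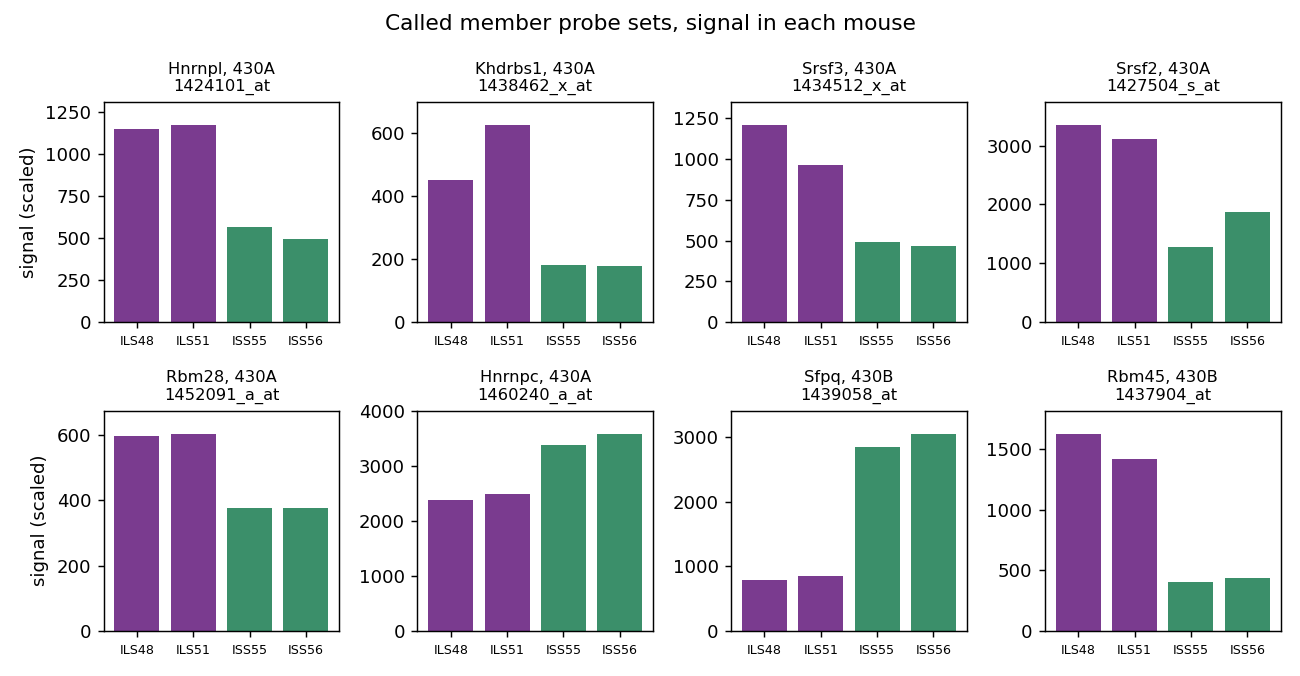
Scaled signal (y axis, from 0) of the 8 called member probe sets in each mouse (x axis), ILS in purple and ISS in green, 1 bar per mouse. In every panel both mice of a strain lie on the same side of both mice of the other, and 6 panels are higher in ILS.

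The called probe sets were then set beside the other probe sets of the same gene. Of the 8 called, 6 have other tested probe sets, 15 in all. Of these 15, 0 were called by limma and 11 had the opposite sign, some of them with differences close to 0. With 2.93% of all tested probe sets called on 430A and 0.48% on 430B, 0 of 15 says little. Over all genes, the brightest probe set and another of the gene had opposite signs in 45.6% of pairs on 430A and 46.2% between chips. The called probe sets were picked for their large differences, so these shares are not strictly comparable with the 11. Each of the 6 genes has at least 1 tested probe set of opposite sign, and Hnrnpl and Rbm45 have none to compare.

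For Srsf2 the other tested probe sets read 775.4 and 768.6 in ILS against 904.1 and 1003.6 in ISS at 1415807_s_at, and 613.5 and 576.8 against 678.9 and 755.4 at 1452439_s_at. Both lay on the ISS side, by -0.30 and -0.27, while 1427504_s_at was higher in ILS by 1.06. For Srsf3 the 4 others had differences of -0.43, -0.27, 0.122 and 0.237, beside 1.18 at the called one. Srsf3 at 1416150_a_at read 939 and 994 in ILS against 1327 and 1274 in ISS, so both strains were separate in the opposite order. For Khdrbs1 the others had 0.504, 0.0542, -0.0236 and -0.0092, beside 1.56. At 1418628_at, the one with 0.504, Khdrbs1 read 422 and 408 against 256.4 and 334.1 (adjusted p = 0.155). Rbm28 had -0.0164 beside 0.67, and Hnrnpc had 0.351 beside -0.51.

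**Figure D3:**
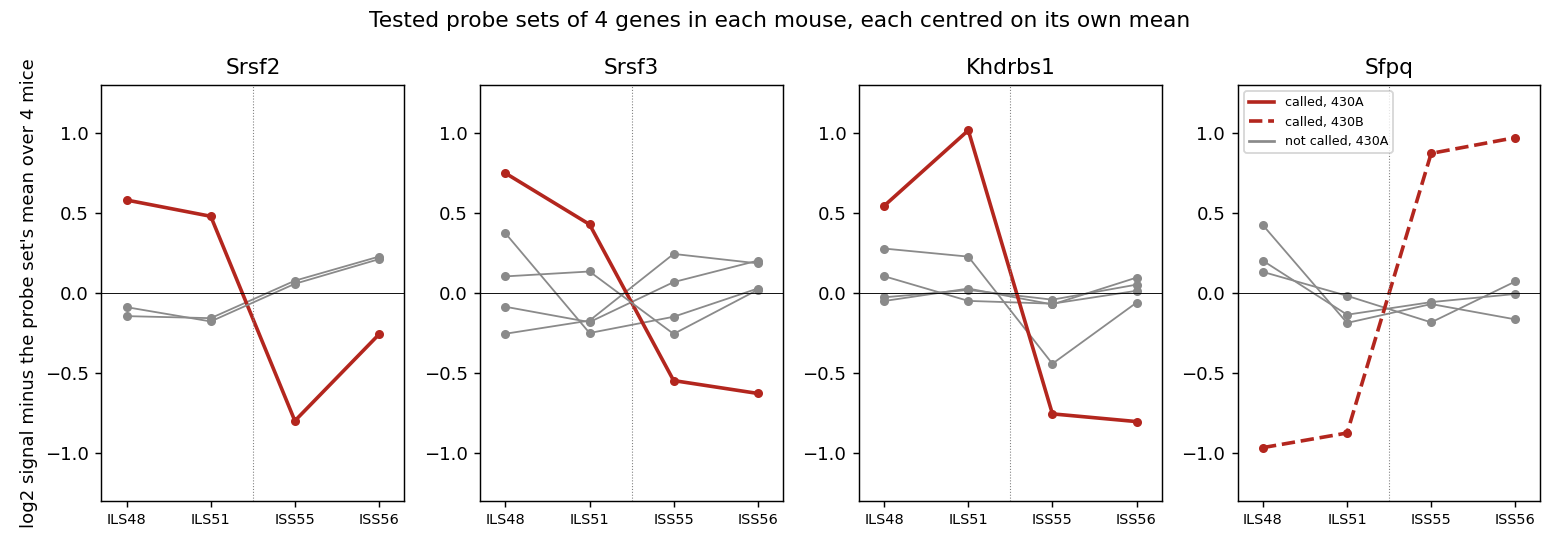
Log2 signal of each tested probe set of Srsf2, Srsf3, Khdrbs1 and Sfpq in each mouse, minus that probe set's own mean over the 4 mice (y axis), by mouse (x axis, with ILS left of the dotted line). Red lines are called probe sets (dashed on 430B) and grey lines are uncalled ones on 430A, which stay nearer to 0 than the red line of their gene.

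Whether such differences within a gene exceed the spread between mice was tested directly, with limma on the log2 ratio in each mouse between the probe set of highest signal and each other tested probe set of the gene. Within a chip the scaling of an array cancels in this ratio. On 430A 6 of 95 member pairs from 50 genes passed, 6.32% against a background of 3.85% of all pairs, and 29 had an unadjusted p under 0.05 (30.5%, background 22.3%). They came from 5 genes, and all but the Rbm14 pair contain a probe set already called for strain. Those pairs reuse its values and are not separate evidence of a strain difference. For Srsf3 the log2 ratio of 1416150_a_at to 1434512_x_at was -0.363 and 0.0399 in ILS against 1.43 and 1.45 in ISS, a difference of -1.6 ± 0.209 (adjusted p = 0.00164). For Khdrbs1 the ratio of 1434541_x_at to 1438462_x_at was 1.93 and 1.3 against 3.06 and 3.18, a difference of -1.51 ± 0.238 (adjusted p = 0.00648). In both genes both ILS ratios lay below both ISS ratios, although the ILS mice differed more from each other than the ISS mice did.

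For Srsf2 the ratios of 1427504_s_at to its 2 other tested probe sets differed between strains by 1.36 ± 0.197 and 1.33 ± 0.2 (limma adjusted p = 0.00366 and 0.00468), and without ILS mouse 48 both missed the threshold (0.0532 and 0.0571). The Hnrnpc ratio differed by -0.87 ± 0.195 (adjusted p = 0.0333) and that of Rbm14, between 1450569_a_at and 1437032_x_at, by 1.25 ± 0.289 (0.0369). Each of those was lost in 4 settings. For Hnrnpc these included leaving out ILS mouse 48 (0.187) or ISS mouse 56 (0.0727), and for Rbm14 leaving out ILS mouse 48 (0.204), ILS mouse 51 (0.0959) or ISS mouse 56 (0.177). The count of called pairs on 430A was 2 without ILS mouse 48 and 12 without ISS mouse 55.

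On 430B 0 of 17 member pairs from 15 genes passed by limma (background 0.407%), and 0 had an unadjusted p under 0.05 (background 9.11%). The largest difference was that of Srsf11, -0.44 ± 0.376, followed by Rbfox1 with 0.377 ± 0.17. The others named by size, of Rbm34, Rbm27, Rbm33 and Rbm39, ran from -0.357 to 0.364.

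Signs also differed within genes. Of 50 member genes with several tested probe sets on 430A, 36 had both signs, or 72% beside 54.2% of all such genes, which had fewer probe sets each (2.45 against 2.9). The median range of differences within a gene was 0.449 for members beside 0.321 for all. On 430B 4 of 15 member genes had both signs, 26.7% beside 51.3%. Of the member pairs, 58.9% had opposite signs on 430A beside 45.6% of all pairs, and 23.5% beside 44% on 430B. The chips thus lay on opposite sides of their backgrounds, and no test of either share was made.

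**Figure D4:**
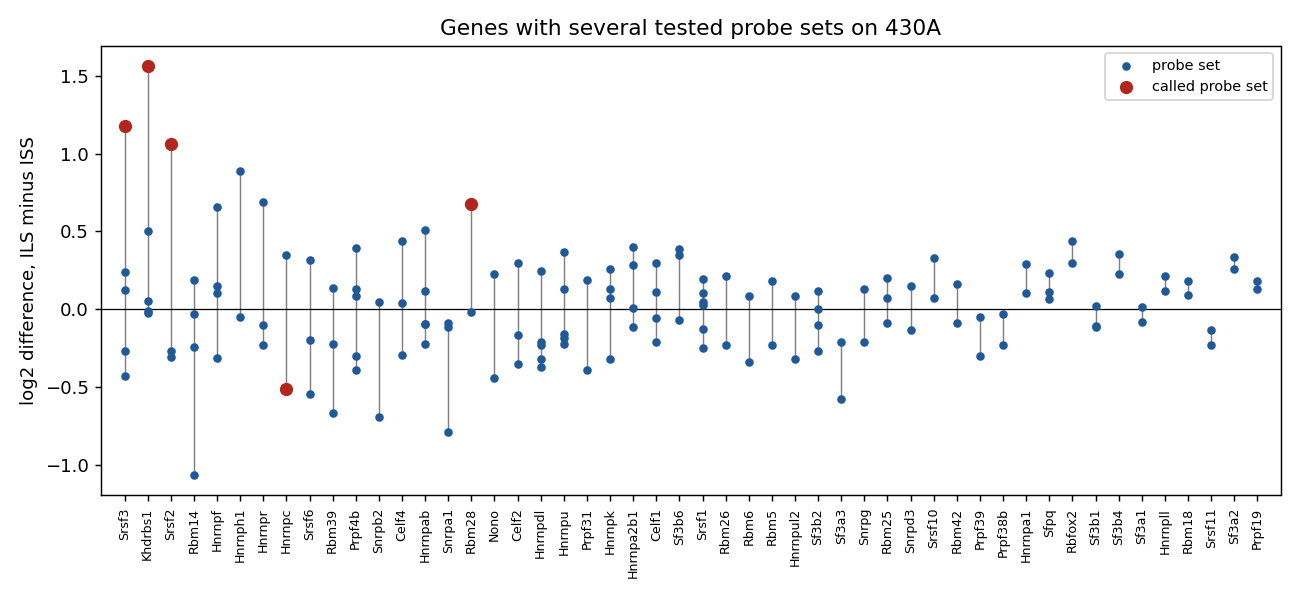
Log2 difference, ILS minus ISS (y axis), of every tested probe set of the 50 member genes with several on 430A (x axis, ordered by range), with a line joining the probe sets of a gene and red points for called ones. Srsf3, Khdrbs1 and Srsf2 have the widest ranges, and 36 genes have probe sets on both sides of 0.

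Between the chips, 30 member genes had a tested probe set on each, and 1 of 30 pairs passed by limma (3.33%, background 0.645%), with 5 at an unadjusted p under 0.05 (16.7%, background 14.3%). It was Sfpq, whose 430B probe set 1439058_at was already called above, so the pair reuses its values. The log2 ratio of 1423795_at on 430A to 1439058_at was 0.261 and -0.442 in ILS against -2.07 and -2.27 in ISS. That is a difference of 2.08 ± 0.268 (limma adjusted p = 0.0189). The call was lost without ISS mouse 56 (0.0989), with no filter (0.0775) and without the trend (0.0574). On 430A the 3 tested Sfpq probe sets had differences of 0.235, 0.0644 and 0.113, so that all 3 were on the other side of 0 from the 430B one. Sfpq at 1436898_at on 430A, too dim to test, read 536.6 and 244.1 in ILS against 101.2 and 86.6 in ISS, the opposite order to 430B. The other dim Sfpq probe set there, 1423796_at, read 114.3 and 123.1 against 143.9 and 179, the same order as on 430B.

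How far the same probe set differs between the chips could be read from 99 probe sets present and tested on both. Their strain differences differed by a median of 0.13 and a 95th percentile of 0.453, with 0.765 as the largest. The same sign was seen in 56 of the 99, and 0 were called on either chip by limma. Rbm42 and Hnrnpul2 are the 2 members among them. Rbm42 at 1415739_at gave -0.0863 on 430A and -0.34 on 430B, where it read 2400.5 and 2436 in ILS against 3058 and 3055 in ISS (adjusted p = 0.477), and Hnrnpul2 at 1415765_at gave 0.084 and 0.263. The Sfpq difference between chips was larger than any of these 99, but it compares 2 different probe sets, a case which these 99 do not cover.

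Member probe sets under the filter numbered 48 on 430A and 28 on 430B, and 9 genes had only such probe sets, Rbm11, Rbm12b1, Rbm15, Rbm19, Rbm38, Rbm3os, Rbm44, Rbm46 and Rbm46os. With no filter 0 of them were called by limma on either chip. Of all dim probe sets only 33 of about 11310 on 430A and 1 of about 11260 on 430B were called, so these 0 calls say little. An unadjusted p under 0.05 was found for 7 on 430A and 1 on 430B, beside 18.3% and 6.5% of all dim probe sets. On 430A the dim members ranged from -2.46 to 2.08 with a median of 0.198, below that of all dim probe sets, 0.371. The lowest adjusted p was that of Sfpq at 1436898_at, 0.0709.

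Splicing genes outside the families above were looked at in the same fits, 96 genes in all. On 430A 135 probe sets of 74 genes were tested and 1 was called (0.741%, background 2.93%), with a median of -0.025 and 26 at an unadjusted p under 0.05 (19.3%, background 21.8%). It was Aqr, an intron-binding helicase of the spliceosome, with 565 and 631 in ILS against 282.3 and 284.3 in ISS (1.08 ± 0.149, limma adjusted p = 0.0137). On 430B 70 probe sets of 39 genes had a median of -0.0356, 7 at an unadjusted p under 0.05 (10%, background 9.02%) and 1 call (1.43%, background 0.48%). That was Msi2, a Musashi RNA-binding protein, at 1435521_at with 308 and 292 in ILS against 791 and 783 in ISS (-1.39 ± 0.219, adjusted p = 0.0303).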

How the data were processed

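Cerebellar RNA of 4 male mice was measured on 8 arrays. The submitters' processing notes name MAS5, with no version. The values deposited by the authors are linear signal intensities, and their 2% trimmed mean was about 500 on every array before any step taken here. The deposited tables hold no detection calls. The experiment files, of unit other, give chip type, fluidics station and scan order per the file headers.

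Signals were set to that trimmed mean exactly and log2 transformed, and 64 controls per chip were left out. Tests covered the 11313 probe sets of 430A and 11256 of 430B with a mean log2 signal at or above their chip's median, by limma 3.58.1 in R 4.3.3 (lmFit, eBayes with an intensity trend), two-sided, with Benjamini-Hochberg adjustment over the chip and a threshold of 0.05. Residual degrees of freedom were 2, with prior degrees of freedom of 6.22 and 7.31. Pairs of probe sets of one gene were fitted likewise, over all genes and adjusted over all pairs. An exact permutation test of 2 mice against 2 cannot go below 0.333 and was not used. The number of arrays limits the precision. Where both mice of a strain lay below their array medians, the fold is a lower bound against those medians or the probe set's own value, whichever was higher.

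Symbols came from the platform annotation, and all member symbols matched RefSeq of GRCm38.p6. No coordinates are given, since the sources name no build for the arrays. Named genes were every called member, then the largest differences without overlap to reach 20 genes on 430A and 8 on 430B, the smallest p and highest signal of each role, the called pairs or else the 6 largest, and from the wider splicing list the called genes, or else those of smallest p in each role. The uncalled probe sets of genes with a called one are given for comparison with it. U2af1, U2af2, Nova1, Nova2, the dim probe sets of Sfpq and Hnrnpl and the members present on both chips were added after their values were seen. The members and lists were chosen with earlier results of these data known. The steps were tested on simulated data.

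The alternatives were equal medians, quantile normalization, a pseudocount at the 20th percentile, a filter at the 75th percentile or none, robust eBayes, eBayes without the trend, adjustment over both chips together, leaving out each mouse, and the station as a block on 430B.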

Additional observations from a re-analysis of the deposited data

How the results depend on the processing

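The count of called members on 430A moved from 6 to 16 with equal medians, to 3 with no filter and to 3 with the strict filter, and ran from 3 to 7 when 1 mouse was left out. On 430B the 2 calls became 0 without the trend and were kept in every other setting tried. The median on 430A moved from 0.005 to -0.1528 with equal medians and ran from -0.0558 to 0.0385 when 1 mouse was left out. Called pairs on 430A ran from 2 to 12 with 1 mouse left out, and the called pair between chips became 0 with no filter and 0 without the trend, and ran from 0 to 1 with 1 mouse left out. Of the 8 called probe sets, Hnrnpl, Srsf3 and Khdrbs1 kept the call in every setting in which they were tested. Of the 38 named but uncalled values, 9 gained a call in at least 1 setting, mostly with equal medians, and some turned sign. With 1 mouse left out Prpf8 ran from -0.25 to 0.07, Srsf5 from -0.35 to 0.07 (0.05 without ISS mouse 56), Snrpe from -0.3 to 0.13, Hnrnpk from -0.03 to 0.3 and Rbfox3 from -0.21 to 0.13, and Hnrnpk was -0.02 with equal medians. The cause of these moves was not tested. No paired analysis was possible because the strains share no replicate number. Fits without 1 mouse take the spread from the other strain and treat the lone mouse as equally variable, and the station block on 430B, which fits ILS mouse 48 exactly, does so too. With 2 mice per strain, small differences could not be resolved, and dim probe sets have no detection call.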

Other observations

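Probe set names on these arrays carry a letter for how specific the probes are, with x for probe sets in which some probes match other sequences. Of the 23 tested members of that kind on 430A, 18 had the higher mean in ILS, with a median difference of 0.193, and 2 were called (Khdrbs1 and Srsf3). Among all 858 tested probe sets of that kind, 500 had the higher mean in ILS, with a median of 0.0692, and 5.36% were called. The 90 members with no letter had a median of -0.0396 and 1 call, Hnrnpl. Probe sequences were not used here, so which transcripts the probes of a set can bind was not tested.

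In the wider list of splicing genes, some values near the threshold lay on the ISS side. Rnps1 and Alyref, of the exon junction and export machinery, read 1017 and 1042 in ILS against 1464 and 1469 in ISS, and 432.7 and 479.4 against 671.9 and 677.1, with limma adjusted p of 0.0667 and 0.0706. Clk1, a kinase of SR proteins, lay on the other side with 1144 and 1026 against 762.1 and 699.1 (adjusted p = 0.0667).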
